A study of Mus musculus with 6 samples.

Results

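The genes described here are the 5 subunits of the transcription factor NF-κB (Rela, Relb, Rel, Nfkb1 and Nfkb2) and 5 genes grouped here as its inhibitors (Nfkbia, Nfkbib, Nfkbie, Tnfaip3 and Bcl3). They were taken by gene symbol from a table of counts per gene, 10 of the 40166 genes it lists, and all 10 were among the 15355 genes with enough counts to be tested. RNA came from YUMM3.3 melanoma, a BRAF-mutant mouse melanoma line grown under the skin of the lower back in C57BL/6 mice that were 8 to 10 weeks old. Of the 6 tumors, 3 came from mice gavaged with H2O (vehicle, replicates 7, 8 and 9) and 3 from mice gavaged with 300 mg/kg rigosertib (RGS, replicates 10, 11 and 12), a small molecule that mimics RAS, on 5 days a week. Every tumor was collected after 17 days of treatment, and the comparison asks how the treatment changed the RNA of the whole tumor. The tumor line is a single cell line, and which mouse carried which tumor and the sex of the hosts were not given per sample in the sources used here, so p-values measure the spread between these tumor samples. The libraries are labelled as melanoma tumors, yet Ptprc (CD45), which marks all leukocytes, and the pigment cell genes Mlana, Tyr and Dct had 0 counts in all 6 of them.

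NF-κB works as a dimer of its subunits. RELA, RELB and c-REL carry activation domains, whereas the products of Nfkb1 and Nfkb2 are made as long precursors (p105 and p100) that are processed to the DNA-binding forms p50 and p52. The IκB proteins encoded by Nfkbia, Nfkbib and Nfkbie keep dimers in the cytoplasm until the IκB kinase complex marks them for destruction. TNFAIP3, also called A20, edits ubiquitin chains upstream of that kinase, and BCL3 is an atypical IκB that binds p50 and p52 in the nucleus. Bcl3 is counted with the inhibitors here by family, which says nothing of whether it inhibits in these tumors. Several of these genes are themselves well-known NF-κB targets, so that the pathway feeds back on its own parts, and the pathway is known in melanoma for cytokine production and cell survival.

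The letters that NF-κB dimers read are known as the κB motif, and they are shown first because the genes differ in whether the start regions searched hold it. RefSeq promoter windows of 300 bases (250 before and 50 after an annotated start, GRCm38.p6) were at hand for 8 of the 10 genes, 11 windows in all. The 10-base κB consensus, searched on both strands, was present in a window of 6 of these 8 genes, against 9.55% of the 27025 genes with a window and 8.46% of all 32851 windows. The matches form the 10 separate stretches below, each printed as 30 bases, 5′ to 3′ on the gene's own strand, with the matching bases in capitals. Where overlapping matches joined, the capitals run to 11 bases.
Nfkbia, chr12:55492657-55492686, minus strand: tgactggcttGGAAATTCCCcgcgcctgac
Nfkbie, chr17:45555584-45555613, plus strand: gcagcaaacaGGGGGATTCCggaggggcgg
Tnfaip3, chr10:19015516-19015545, minus strand: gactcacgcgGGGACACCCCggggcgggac
Tnfaip3, chr10:19015403-19015432, minus strand: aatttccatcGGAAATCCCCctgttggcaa
Bcl3, chr7:19822734-19822763, minus strand: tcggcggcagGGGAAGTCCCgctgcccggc
Rel, chr11:23771041-23771070, minus strand: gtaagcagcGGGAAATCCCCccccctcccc
Nfkb2, chr19:46304689-46304718, plus strand: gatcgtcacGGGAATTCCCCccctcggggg
Nfkb2, chr19:46304716-46304745, plus strand: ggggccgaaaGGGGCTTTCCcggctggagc
Nfkb2, chr19:46305449-46305478, plus strand: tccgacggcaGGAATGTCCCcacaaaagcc
Nfkb2, chr19:46305695-46305724, plus strand: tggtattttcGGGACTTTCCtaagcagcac
The Nfkbia match began 29 bases before the start, the Nfkbie match 106 bases before it, the Rel match 92 bases before it, and the Tnfaip3 matches 125 and 12 bases before it. The Bcl3 match lay just inside the transcript, from base 3. Nfkb2, with windows at several starts, held the most, 4 stretches. No match lay in the windows of Rela and Nfkbib, which says only that these letters are not there. The Nfkbib window (chromosome 7, 28766595 to 28766894) lies inside the gene as counted (28758251 to 28767512), so the bases before its outermost end were not searched. The RefSeq start used for the Tnfaip3 matches also lies inside the gene as counted (19000910 to 19015657), as do both matches. A match is a run of letters and not a measured binding site, and no binding was measured in these tumors.

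After RGS, 1 of the 10 genes was called higher and none lower. Rela rose, and the other subunits and the inhibitors did not pass the test. The estimates of the inhibitors were split: Nfkbia and Nfkbib, the more abundant IκB genes, had positive estimates, whereas Nfkbie, Tnfaip3 and Bcl3 had negative ones. A gene was called at a Benjamini-Hochberg adjusted p under 0.05 in edgeR's quasi-likelihood test. Across all tested genes, 16.3% were called higher and 16.5% lower, beside 1 and 0 of these 10, so the share called higher is near the background. At an unadjusted p under 0.05, 3 of the 10 were lower (Nfkbie, Tnfaip3 and Bcl3) and 1 higher, and DESeq2 and limma voom also called 0 lower and 1 higher. In bulk tumors fewer cells of a type and less RNA per cell cannot be told apart.

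**Figure D1:**
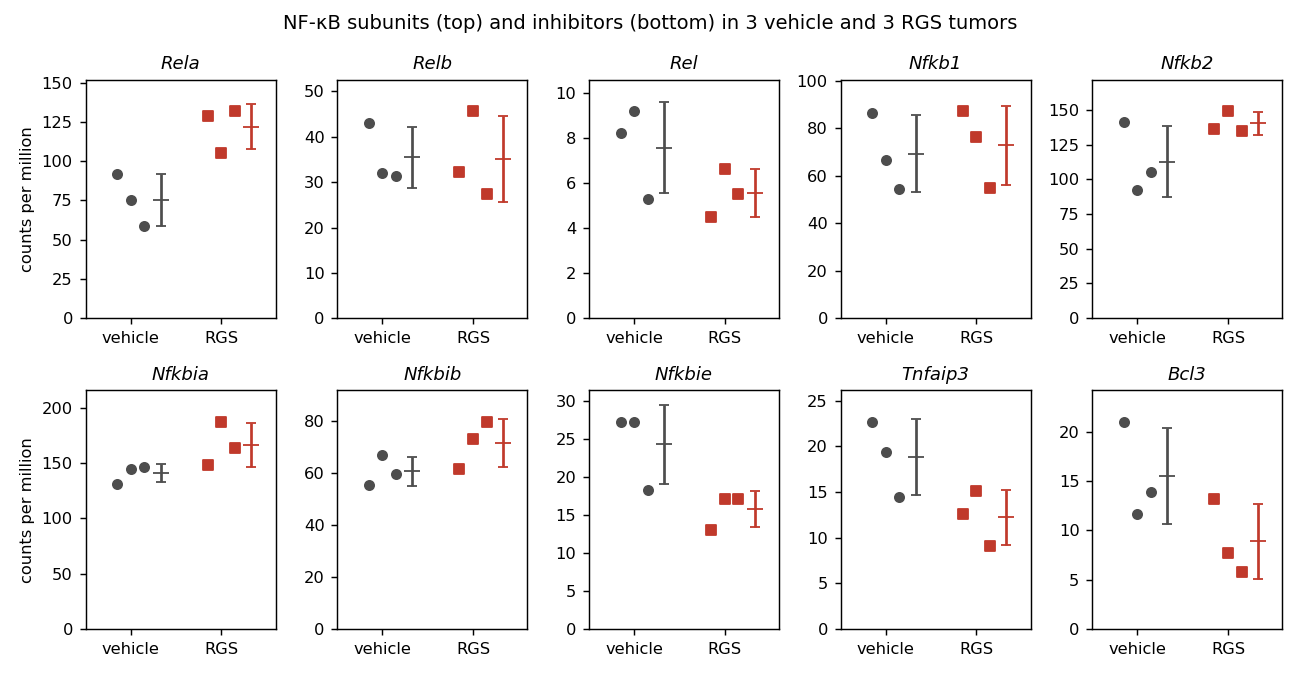
CPM, read counts scaled to a common library total (vertical axes, each from 0) of the 5 subunit genes (top row) and the 5 inhibitor genes (bottom row) in each tumor, circles for the 3 vehicle and squares for the 3 RGS tumors, with the mean and SD beside them. The groups do not overlap for Rela and Nfkbia, where RGS was higher, or for Nfkbie, where RGS was lower.

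Levels are given in CPM, the read count of a gene scaled to a common library total with TMM factors. Rela (ENSMUSG00000024927.7, chromosome 19, 5637483 to 5648130, plus strand), which encodes the p65 subunit of the canonical dimer, measured 91.7, 75.0 and 58.7 CPM in vehicle tumors 7, 8 and 9 and 129, 105 and 132 CPM in RGS tumors 10, 11 and 12. Every RGS tumor was above every vehicle tumor, and vehicle 7 and RGS 11 lay closest to each other. The means were 75.1 ± 16.5 (SD, n = 3) and 122 ± 14.6 CPM (SD, n = 3), a log2 fold change of 0.70 ± 0.18 (SE), 1.62-fold, with a 95% interval of 0.32 to 1.08 and an adjusted p = 0.00579 by edgeR's quasi-likelihood test. Without each tumor in turn the estimate stayed between 0.55 and 0.87.

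Nfkb2 (ENSMUSG00000025225.14, chromosome 19, 46304737 to 46312090, plus strand), the p100/p52 gene of the non-canonical arm, measured 141, 92.0 and 105 CPM in the vehicle tumors and 137, 149 and 135 CPM in the RGS tumors. The 3 RGS tumors lay close together, and vehicle 7 fell among them, so the groups overlapped. The log2 fold change was 0.31 ± 0.17 (SE, 95% interval -0.04 to 0.67, edgeR quasi-likelihood adjusted p = 0.170). The result turned on that tumor. Without vehicle 7 it was 0.51 and was called (adjusted p = 0.00816, edgeR). Leaving out vehicle 8 moved it the other way, to 0.21 (adjusted p = 0.515, edgeR). In GENCODE M21 its exons share 299 bases with those of Psd on the opposite strand, a gene with 172 to 374 counts against 1982 to 4939 for Nfkb2.

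Nfkb1 (ENSMUSG00000028163.17, chromosome 3, 135584655 to 135691547, minus strand), the p105/p50 gene, ran over nearly the same range in both groups, 86.6, 66.6 and 54.6 CPM with vehicle and 87.4, 76.2 and 54.8 CPM with RGS. Its log2 fold change was 0.07 ± 0.20 (SE, 95% interval -0.35 to 0.50, edgeR quasi-likelihood adjusted p = 0.821), and its sign turned under 3 of the alternatives. Relb (ENSMUSG00000002983.17, chromosome 7, 19606217 to 19629438, minus strand), the partner of p52, measured 43.1, 32.0 and 31.3 CPM with vehicle and 32.3, 45.7 and 27.3 CPM with RGS. Here 1 tumor of each group, vehicle 7 and RGS 11, stood above the other two. The log2 fold change of Relb was -0.02 ± 0.22 (SE, 95% interval -0.48 to 0.45, edgeR quasi-likelihood adjusted p = 0.960). Both intervals include changes as large as the one estimated for Nfkb2, so equal levels were not shown.

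Rel (ENSMUSG00000020275.9, chromosome 11, 23736847 to 23770970, minus strand), which encodes the lymphoid subunit c-REL, was the least counted of the 10. It measured 8.19, 9.19 and 5.29 CPM with vehicle and 4.50, 6.63 and 5.51 CPM with RGS. Vehicle 9 lay among the RGS tumors, and the fold change of -0.45 ± 0.38 (SE, log2; 95% interval -1.25 to 0.35) did not pass (edgeR quasi-likelihood adjusted p = 0.396).

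Among the inhibitors, Nfkbia (ENSMUSG00000021025.8, chromosome 12, 55489410 to 55492647, minus strand), the IκBα gene, measured 131, 144 and 146 CPM in vehicle tumors and 148, 188 and 164 CPM in RGS tumors. The groups did not overlap, although vehicle 9 and RGS 10 nearly met. The means were 141 ± 8.09 and 167 ± 19.8 CPM (SD, n = 3 each), and the log2 fold change of 0.24 ± 0.15 (SE, 95% interval -0.08 to 0.57) did not pass the test (edgeR quasi-likelihood adjusted p = 0.242). Nfkbib (ENSMUSG00000030595.15, chromosome 7, 28758251 to 28767512, minus strand), the IκBβ gene, measured 55.4, 66.6 and 59.3 CPM with vehicle and 61.5, 72.9 and 79.6 CPM with RGS, and the groups overlapped. Its log2 fold change was 0.24 ± 0.17 (SE, edgeR quasi-likelihood adjusted p = 0.307). The exons of Nfkbib share 42 bases, 1.94% of their length, with those of Sirt2 on the opposite strand, and the strand setting of the counting was not given in the sources used here.

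Nfkbie (ENSMUSG00000023947.8, chromosome 17, 45555703 to 45563169, plus strand), the IκBε gene, measured 27.3, 27.3 and 18.3 CPM in vehicle tumors and 13.1, 17.2 and 17.1 CPM in RGS tumors. All RGS tumors were below all vehicle tumors, with vehicle 9 just above them. The log2 fold change was -0.63 ± 0.24 (SE, 95% interval -1.14 to -0.11), and the edgeR quasi-likelihood adjusted p = 0.0568 missed the threshold. Without vehicle 9 the estimate was -0.79 and the gene was called (adjusted p = 0.0273, edgeR). Leaving out vehicle 8 moved it the other way, to -0.51 (adjusted p = 0.248, edgeR).

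Tnfaip3 (ENSMUSG00000019850.11, chromosome 10, 19000910 to 19015657, minus strand) measured 22.7, 19.4 and 14.5 CPM with vehicle and 12.5, 15.1 and 9.06 CPM with RGS. Only vehicle 9 and RGS 11 crossed between the groups. Its log2 fold change of -0.63 ± 0.28 (SE, 95% interval -1.21 to -0.05) had an adjusted p = 0.0885 by edgeR's quasi-likelihood test, and 0.0498 with a fold change of -0.81 when RGS 11 was left out. When vehicle 7 was left out, the fold change was -0.48 (adjusted p = 0.251, edgeR).

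Bcl3 (ENSMUSG00000053175.17, chromosome 7, 19808462 to 19822770, minus strand) measured 21.04, 11.7 and 13.9 CPM with vehicle and 13.2, 7.68 and 5.81 CPM with RGS. RGS 10 lay inside the vehicle range and the other RGS tumors lay below it. The log2 fold change was -0.80 ± 0.34 (SE, 95% interval -1.50 to -0.10, edgeR quasi-likelihood adjusted p = 0.0747), and without RGS 10 it was -1.21 (adjusted p = 0.0181, edgeR). Leaving out vehicle 7 gave -0.52 (adjusted p = 0.307, edgeR). Over the 10 genes, 2 had RGS above vehicle in every tumor, against 21.7% of the tested genes, and 1 had it below, against 24.0%. The other 7 overlapped.

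**Figure D2:**
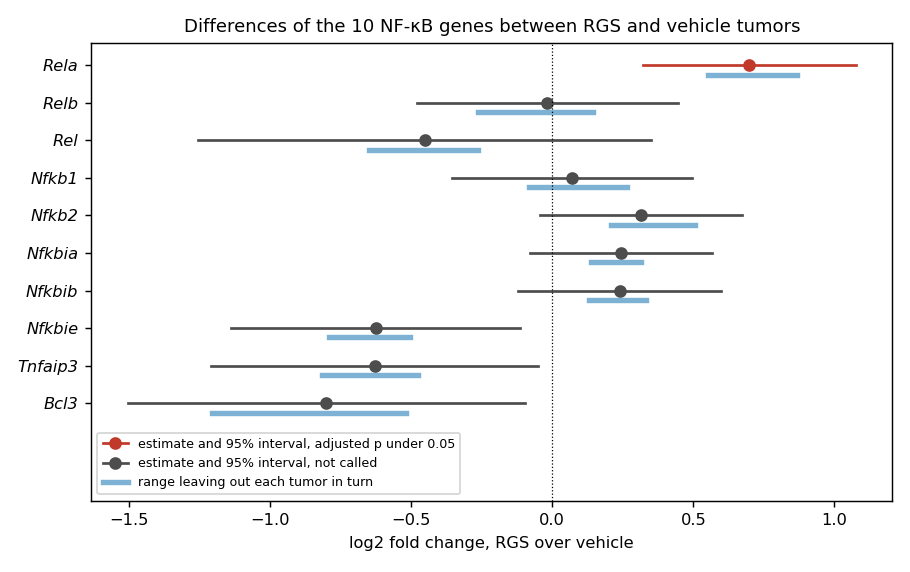
Log2 fold change of RGS over vehicle (horizontal axis) for each of the 10 genes, with its 95% interval from the edgeR fit, and below it the range when each tumor was left out in turn. Only the interval of Rela belongs to a gene that was called, and the intervals of Nfkbie, Tnfaip3 and Bcl3 lie below 0 although their adjusted p-values were 0.0568, 0.0885 and 0.0747.

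To compare genes with each other, CPM was divided by the gene length in the table, in kilobases, which gives RPKM. Nfkbia was the highest of the 10, at a mean of 95.4 RPKM over the 6 tumors, and no other gene reached its range of 81.6 to 117. Nfkb2 (38.5 RPKM), Rela (36.3 RPKM) and Nfkbib (30.4 RPKM) followed, and neighbours in this order overlapped in range. A gap then separated Relb (9.08 RPKM), Nfkbie (6.59 RPKM), Nfkb1 (5.89 RPKM), Bcl3 (4.93 RPKM) and Tnfaip3 (2.15 RPKM), again with overlap between each and the next. Rel, at 0.878 RPKM, lay below all others. By these length-scaled levels the tumors held mostly Rela and Nfkb2 among the subunits and mostly Nfkbia and Nfkbib among the inhibitors. The low place of Nfkb1 rests on its length in the table, 12061 bases. In CPM, without length, its mean was 71.0 beside 98.5 for Rela and 126 for Nfkb2. The places of Nfkb2 and Rela also rest on their lengths in the table, 3289 and 2716 bases. In GENCODE M21, which holds another version of both, their exons cover 4584 and 3072 bases. Levels were not recomputed with those lengths, so the order of Nfkb2, Rela and Nfkbib holds only for the lengths used. Near the top of the RPKM order, Rela (27.7 RPKM) ranked below Nfkb2 (34.3 RPKM) and just below Nfkbib (27.9 RPKM) in vehicle tumors, and its range overlapped both. In RGS tumors Rela (44.9 RPKM) ranked above both, and its range overlapped that of Nfkb2 but not that of Nfkbib.

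**Figure D3:**
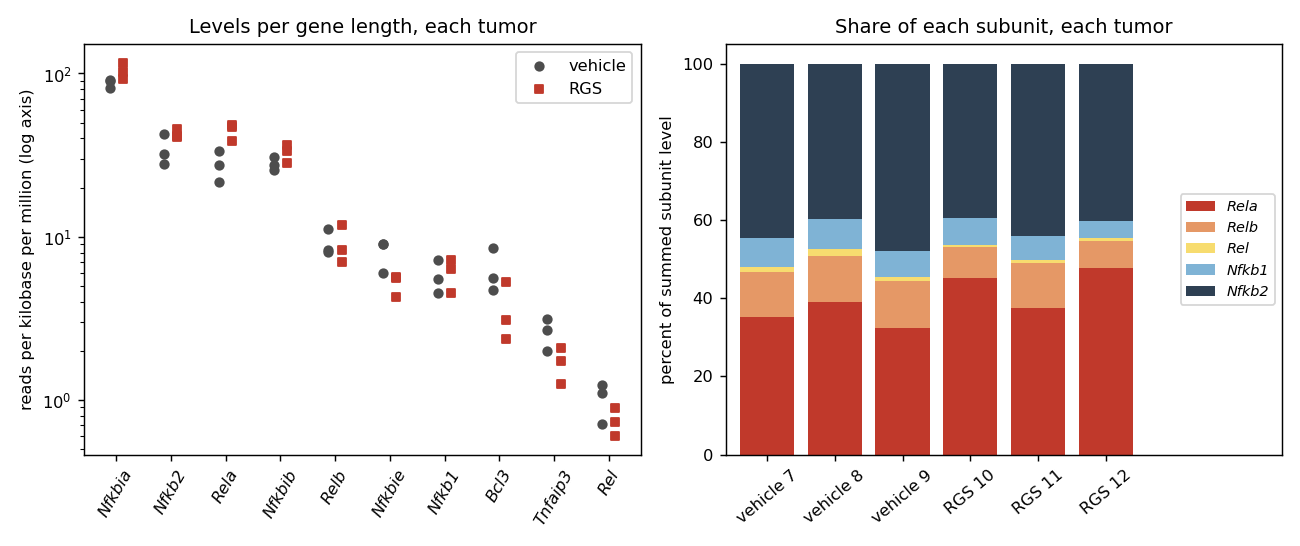
Left, RPKM on a log axis for each gene in each tumor, genes ordered by their mean over the 6 tumors (95.4 for Nfkbia to 0.878 for Rel). Right, the percent that each subunit gene makes up of the summed RPKM of the 5 subunit genes in each tumor, as stacked bars from 0. Rela and Nfkb2 fill most of every bar.

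As a share of the summed RPKM of the 5 subunit genes, Rela made up 35.2%, 39.1% and 32.3% in the vehicle tumors and 45.1%, 37.6% and 47.7% in the RGS tumors. RGS 11 lay below vehicle 8, so this share overlapped between groups (means 35.5 ± 3.42% and 43.5 ± 5.26%, SD, n = 3 each). The share of Relb was 11.8 ± 0.242% with vehicle and 8.74 ± 2.37% with RGS (SD, n = 3 each). Its 3 vehicle values, 11.6% to 12.03%, were tight, and RGS 11, at 11.4%, lay just under them. The share of Rel was 1.32 ± 0.374% and 0.720 ± 0.144% (SD, n = 3 each), and its groups did not overlap either. Nfkb1 (7.36 ± 0.544% and 5.83 ± 1.25%) and Nfkb2 (44.0 ± 4.14% and 41.3 ± 2.42%) overlapped. The sum includes Rela, which rose, so a share can fall while the level of its own gene does not. The log2 fold change of Relb itself was -0.02, and how often other genes would show such shares was not computed. With 3 tumors a group no exact permutation test can go below p = 0.10, so none was run on these shares.

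Set against Rela in the same tumor, the RPKM of Tnfaip3 was nearly constant among the vehicle tumors, 0.0932, 0.0972 and 0.0928 of the Rela level, and 0.0367, 0.0538 and 0.0258 in the RGS tumors. The overlap seen in the Tnfaip3 counts was gone on this scale, and the ratio in RGS was 0.411 of that in vehicle. Nfkbie stood at 0.266, 0.325 and 0.278 of Rela with vehicle and 0.0906, 0.146 and 0.116 with RGS. Bcl3 stood at 0.252, 0.171 and 0.260 of Rela with vehicle and 0.112, 0.0801 and 0.0483 with RGS. These 3 inhibitors, Rel and Nfkb1 had ratios without overlap and lower in RGS, 5 of the 9 other members. The measure divides by a gene that rose, and 46.3% of all other tested genes also had lower ratios without overlap, so the members' share is near the background. Nfkbia (3.29 ± 0.895 and 2.35 ± 0.575 of Rela, SD, n = 3 each) and Nfkbib (1.04 ± 0.261 and 0.740 ± 0.135 of Rela, SD, n = 3 each) overlapped. The summed inhibitor RPKM over the summed subunit RPKM was 1.75 ± 0.360 with vehicle and 1.42 ± 0.155 with RGS (SD, n = 3 each), again with overlap.

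**Figure D4:**
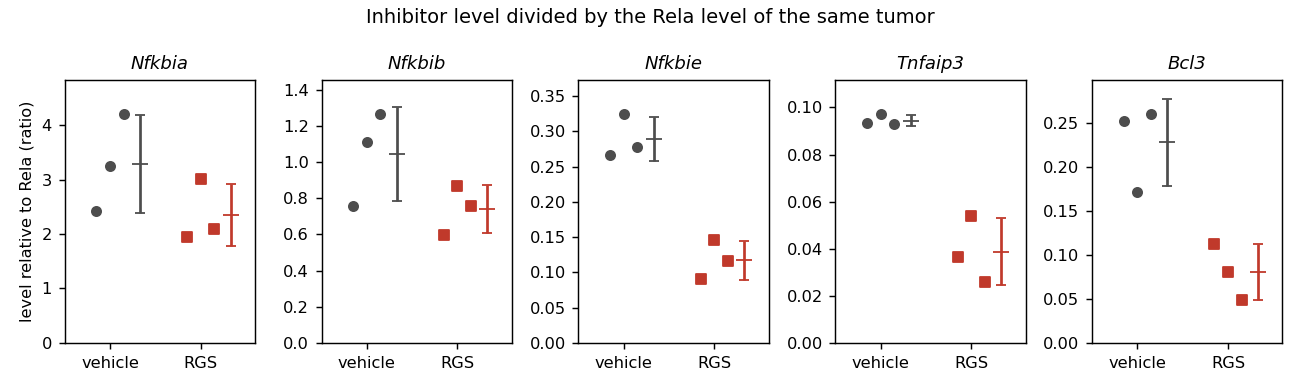
RPKM of each inhibitor gene divided by the RPKM of Rela in the same tumor (vertical axes from 0), circles for vehicle and squares for RGS tumors, with the mean and SD beside them. The groups overlap for Nfkbia and Nfkbib and do not overlap for Nfkbie, Tnfaip3 and Bcl3.

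The genes that pass signals to NF-κB were listed by role. Of 27 kinase and adaptor genes tested, 5 were called lower and none higher in RGS by edgeR's quasi-likelihood test. DESeq2 and limma voom called the same numbers. At an unadjusted p under 0.05, each tool had 6 lower, and 2 were higher by edgeR and DESeq2 and 1 by limma voom. The list median log2 fold change was -0.03 against -0.05 over all tested genes. With 16.5% of all tested genes called lower, 5 of 27 is near the background. The IκB kinase genes themselves were not among them. Chuk (IKKα) had a log2 fold change of -0.28 ± 0.21, Ikbkb (IKKβ) of -0.03 ± 0.21, Ikbkg (NEMO) of -0.16 ± 0.16 and Map3k14, the NIK kinase of the non-canonical arm, of -0.27 ± 0.22 (SE). The exons of Ikbkg share 418 bases with those of G6pdx on the opposite strand, a gene with 2179 to 5820 counts against 1102 to 3577 for Ikbkg. Birc2, the cIAP1 ubiquitin ligase at TNF receptors, fell by 1.11 on the log2 scale (edgeR adjusted p = 0.00188), from a mean of 32.96 ± 5.48 CPM in vehicle to 15.3 ± 4.63 CPM in RGS (SD, n = 3 tumors in each group). Rnf31, the catalytic part of the linear ubiquitin ligase (LUBAC), fell by 0.80 (edgeR adjusted p = 0.00469), from 42.9 ± 7.61 CPM in vehicle to 24.6 ± 1.48 CPM in RGS (SD, n = 3 tumors in each group). Tab2, an adaptor of the TAK1 kinase, fell by 0.56 on that scale. Rnf31 shares 123 exonic bases with Irf9 on the same strand, a gene with 102 to 1465 counts against 325 to 1786 for Rnf31. Traf5, which the table places on a scaffold rather than a chromosome, fell by 1.49 but lost its call without vehicle 8, vehicle 9, RGS 10 or RGS 12 in turn, as Tab2 did without RGS 11. The count of 5 was 3 without vehicle 8 and 3 without RGS 12.

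Of 17 other regulators of the pathway, 2 were called higher and 2 lower (median 0.05, edgeR). Beside 16.3% and 16.5% of all tested genes, these counts are near the background. Otulin, the enzyme that removes linear ubiquitin chains, rose by 0.79 on the log2 scale, with 25.9 ± 2.34 CPM in vehicle tumors and 44.9 ± 2.03 CPM in RGS tumors (SD, n = 3 for both). Tax1bp1, an adaptor of TNFAIP3, rose by 0.58 on the log2 scale, a call that was lost without RGS 12 (count then 1). Pdlim2, a nuclear ubiquitin ligase for p65, fell by 1.08 on the log2 scale, with 201 ± 31.7 CPM in vehicle tumors and 94.8 ± 21.1 CPM in RGS tumors (SD, n = 3 for both). Commd1, which promotes the turnover of p65, fell by 1.25 on the log2 scale, and its exons share 412 bases with Zrsr1 on the opposite strand.

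Of 12 receptor genes, 11 were tested, 2 were called lower and none higher by edgeR's quasi-likelihood test (median -0.40), with 1 higher at an unadjusted p under 0.05. With 16.5% of all tested genes called lower, 2 of 11 is near the background. Tlr4, the lipopolysaccharide receptor, was lower in every RGS tumor, 19.8 to 25.6 CPM against 72.7 to 81.4 CPM with vehicle (log2 fold change -1.78 ± 0.18, SE). Il1rap, the shared chain of the interleukin-1 receptor, was also lower in every RGS tumor, and its means were 75.6 ± 9.89 CPM in vehicle and 37.2 ± 6.27 CPM in RGS (SD, n = 3 for both), a log2 fold change of -1.02. Cd40, the receptor at the centre of the study, which signals through both arms of NF-κB, had 0, 11 and 0 counts in vehicle tumors and 16, 15 and 1 in RGS tumors. RGS 12 lay among the vehicle values, and the log2 fold change of 2.26 ± 1.70 (SE) did not pass (edgeR adjusted p = 0.332), with a 95% interval of -1.29 to 5.82. DESeq2 and limma voom each called 1 receptor higher, which was not Cd40 (adjusted p = 0.355 by DESeq2 and 0.156 by limma voom).

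Of 10 ligand genes only 5 had enough counts to be tested. Of these, 2 were called higher and 0 lower by edgeR's quasi-likelihood test, DESeq2 and limma voom alike, with 0 lower at an unadjusted p under 0.05. Over all tested genes, 16.3% were called higher and 16.5% lower. Tnfsf12, the TWEAK ligand, rose by 1.33 on the log2 scale, to 12.6 ± 1.39 CPM in RGS tumors over 5.002 ± 1.61 CPM in vehicle tumors (SD, n = 3 for both). It shares 48.3% of its exonic bases with a read-through gene, Tnfsfm13, on the same strand. Il1a had 2, 1 and 2 counts in vehicle tumors and 14, 26 and 32 in RGS tumors. The count of 2 fell to 1 without vehicle 7, vehicle 8, RGS 11 or RGS 12.

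Of 36 genes known as NF-κB targets, 31 were tested, 8 were called higher and 8 lower, beside 16.3% and 16.5% of all tested genes, with a median log2 fold change of -0.06. The targets that passed the test moved in both directions. Csf2, the cytokine GM-CSF, rose by 4.86 ± 0.31 (SE) on the log2 scale, and reached 91.3 ± 16.7 CPM in RGS tumors where vehicle tumors held 3.20 ± 1.77 CPM (SD, n = 3 for both). Ier3, an early-response survival gene, rose from 224 ± 12.2 to 1298 ± 159 CPM, and Plau, the urokinase gene, from 220 ± 7.82 to 1209 ± 55.1 CPM (SD, n = 3 each). Lcn2, the iron-binding lipocalin, rose by 1.06 on the log2 scale, a call lost without vehicle 8 or RGS 12.

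On the other side, Vcam1, the vascular adhesion molecule, fell by 2.42 ± 0.16 (SE) on the log2 scale, to 59.3 ± 2.34 CPM in RGS tumors over 318 ± 22.4 CPM in vehicle tumors (SD, n = 3 for both). Ccl5, a chemokine for T cells, fell from 6.37 ± 1.62 to 0.652 ± 0.263 CPM, Tap1, the peptide transporter of antigen presentation, from 22.4 ± 1.37 to 4.58 ± 1.05 CPM, and Gadd45b, a stress gene, from 243 ± 25.1 to 57.8 ± 14.5 CPM (SD, n = 3 each). The count of 8 higher targets was 5 without vehicle 8, RGS 11 or RGS 12, and 5 when only library size was used for scaling. None of the 10 subunit and inhibitor genes passed 1 in either direction on the log2 scale.

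**Figure D5:**
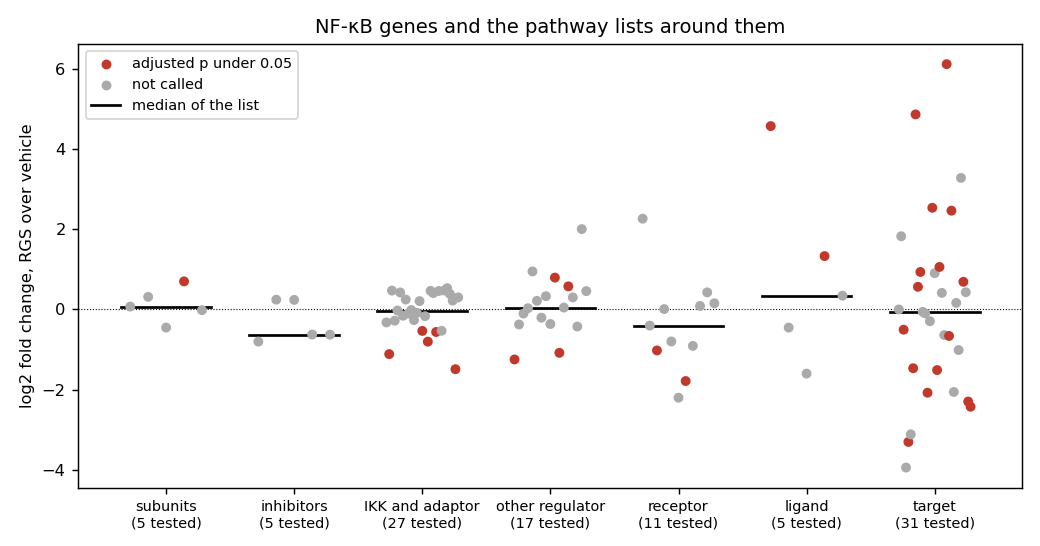
Log2 fold change of RGS over vehicle (vertical axis) of every tested gene of the subunit, inhibitor and 5 pathway lists, coloured where the adjusted p was under 0.05, with the median of each list as a line. The subunit and inhibitor genes stay within 1 of 0, and the called targets run from -3.30 (Ccl5) upward past 4.86 (Csf2).

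By root mean square difference of centred log2 CPM over the 6 tumors, the 3 genes out of 12229 whose pattern was nearest to that of Rela were Kif3b (0.0405), a kinesin subunit, and Sec23a (0.0667) and Copz1 (0.0670), both parts of vesicle coats. Their log2 fold changes were 0.70, 0.73 and 0.74, close to that of Rela as the measure requires. The call of Kif3b was lost without vehicle 9, RGS 10 or RGS 12, and with scaling by library size only.

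The libraries held 13837932 to 32555494 counts, and the shallowest vehicle library still exceeded the deepest RGS one. Mitochondrial genes took 2.13% to 3.20% of counts with vehicle and 5.60% to 8.22% with RGS, and ribosomal protein genes 5.66% to 10.2% and 3.15% to 3.68%. The 0 counts of Ptprc allow a level of up to 3 counts, which stand for 0.0922 to 0.217 CPM before TMM scaling, counting error only. Of 12 macrophage markers 2 were tested, with a summed level of 65.1 to 71.0 CPM with vehicle and 83.0 to 107 CPM with RGS that came almost wholly from Cd68 and Cd14. The summed levels of neutrophil (6 genes), T and NK (10 genes) and B cell (5 genes) markers reached at most 0.673, 1.42 and 0.473 CPM in any tumor. Of the T and NK markers, Trac had 0 counts in each vehicle tumor and 30, 16 and 10 in the RGS tumors. Cd3d, Cd3e, Cd3g, Cd8a and Nkg7 were at 0 in both groups. Summed fibroblast markers (6 genes) ran from 375 to 572 CPM with vehicle and 277 to 305 CPM with RGS. Most of that sum was Col1a2 and Pdgfra, which fell, as did Pdgfrb, whereas Dcn rose (log2 fold change 3.24), Col1a1 was at 0.10 and not called, and Lum was at 0. The endothelial sum (6 genes) was 0.946 to 1.20 CPM with vehicle and 3.47 to 11.2 CPM with RGS, mostly in Cdh5, while Emcn was at 0 and Kdr, Tie1 and Tek were near it. The keratinocyte sum (6 genes) was 0.400 to 1.72 CPM with vehicle and 6.72 to 20.99 CPM with RGS, mostly in Ivl, with 0 counts in each vehicle tumor and 124, 151 and 321 in the RGS tumors, while Krt1 and Trp63 were at 0 and Krt5 and Krt14 had at most 2 counts. The dendritic sum (7 genes) was 5.88 to 8.51 CPM with vehicle and 8.21 to 14.3 CPM with RGS, and its genes moved in opposite directions. Flt3 rose from a mean of 0.228 to 7.90 CPM, whereas Zbtb46 went from 7.05 to 3.20 CPM without overlap and was not called. Itgax and Siglech were at 0. The 8 melanocyte markers, with Mlana, Tyr and Dct at 0, summed to 4.53 to 12.7 CPM over both groups, mostly in Mitf. Sox10 had 18 counts in RGS 11 and 0 in every other tumor. S100b had 48 counts in RGS 10, 9 in vehicle 8 and 0 elsewhere. Of the markers, Cd14, Trac, Flt3, Dcn, Cdh5 and Ivl rose and Col1a2, Pdgfra and Pdgfrb fell. These genes, the depth and the mitochondrial and ribosomal shares moved with treatment, and their part in the differences of Rela and the other genes was not tested.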

How the data were processed

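Bulk RNA of 6 YUMM3.3 tumors was sequenced as 1 library per tumor. The authors deposited raw counts per gene, 1 column per tumor, with the gene length in bases as another column. Per the labels, the tools were cutadapt 1.18, FastQC 0.11.7, STAR 2.7.1a and featureCounts 1.6.4 on mm10. Neither how strand was handled nor what was done with multi-mapped reads was given in the sources used here, so reads of overlapping genes cannot be told apart. Of the 40166 gene identifiers, 38971 were found in GENCODE M21 with the same start and end; those of Rela and Nfkb2 were there in another version, and the coordinates given are those of the table.

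The genes tested (15355) had a group median of 5 or more counts in either group. They were fitted with edgeR 4.0.16 (R 4.3.3; TMM factors, quasi-likelihood F test, no covariate), and p-values were adjusted over all of them by Benjamini-Hochberg at a threshold of 0.05. SE was the fold change over the root of F. DESeq2 1.42.0, limma voom (3.58.1), other scalings and filters, thinning and leaving out each tumor were alternatives. The script was tested on simulated counts, where it recovered 52.1% of 2-fold and 66.3% of 4-fold changes, with 5.88% false calls. The changed genes were drawn at random from all tested genes, so these rates include genes with few counts and are not specific to the 10 members. A gene that was not called may still have changed. The promoter windows were read from RefSeq tables. Genes named were the 10 members, Cd40, Chuk, Ikbkb, Ikbkg and Map3k14, up to 4 rises and 4 falls per pathway list (called, groups not overlapping, mean of at least 1 CPM), and the 3 genes nearest to Rela. Il1a, with a lower mean, was given outside this rule as a called ligand. The members and lists were chosen with earlier results of these data known. Totals ran from 13837932 to 32555494 counts, and intervals on single counts cover counting error only. Pairs of libraries of the same group differed by more than sampling noise (chi-square per degree of freedom of 19.6 or more).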

Additional observations from a re-analysis of the deposited data

How the results depend on the processing

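Of 160 estimates of the 10 genes under alternatives, 146 kept their direction and their side of the threshold, 8 changed call and 6 turned sign; Rela was called in all of its 16 (adjusted p from 0.000202 to 0.0345). The number of the 10 called lower, 0 in the report, was 1 with upper-quartile factors (Nfkbie, adjusted p = 0.0445), 3 with library size only (Nfkbie, Tnfaip3 and Bcl3), and 0 to 1 without each tumor in turn. Scaling by library size only moved the median log2 fold change of all tested genes from -0.05 to -0.19. The number called higher was 0 with a log2 fold change of at least 1 and 1 to 2 without each tumor in turn. Nfkb1 was -0.0685 with library size only and ran from -0.0839 to 0.264 without each tumor; Relb ran from -0.262 to 0.144. Ikbkb was 0.0204 in thinned counts and -0.245 to 0.119 without each tumor. Over all genes, 1562 were lower and 1607 higher at an adjusted p under 0.01, and 1450 and 1168 with a log2 fold change of at least 1. In CPM without gene length, 1 neighbouring pair in the level order did not overlap, against 3 per length, and the subunit shares of Rel and Nfkb1 differed by -1.06 and -3.74 percentage points, as more reads fall on longer genes. Over the other named genes, 415 of 431 estimates kept direction and call. No paired analysis was possible because the groups share no replicate numbers. The other causes were not tested. With 3 tumors a group, the genes with the fewest counts, Rel and Bcl3, had the widest errors (SE 0.38 and 0.34 on the log2 scale).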

Other observations

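Among the vehicle tumors, replicate 7 held the highest CPM for 7 of the 10 subunit and inhibitor genes, and replicate 9 the lowest for 6 of them. Over all tested genes, replicate 7 was the highest vehicle tumor for 41.1% and replicate 9 the lowest for 38.7%. Among the RGS tumors, replicate 11 was the highest for 6 of the 10 genes, against 31.0% of all tested genes. These are positions of single tumors and were not tested.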
